A study of Mus musculus with 6 samples.

Results

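The genes described here encode the subunits of nonmuscle myosin II and the enzymes that switch it on and off, measured in mouse embryonic stem cells after depletion of the long noncoding RNA Panct1. The 10 genes were listed by name, and every probe set annotated to exactly 1 of them was taken: Myh9 and Myh10 (heavy chains), Myl6 (essential light chain), Myl9, Myl12a and Myl12b (regulatory light chains), Mylk and Rock1 (kinases) and Ppp1r12a (a phosphatase subunit) had 25 probe sets of their own, out of 45037 tested. The kinase gene Rock2 is also on the list and was not analysed here. There were 3 arrays of Panct1 knockdown, from cells given an esiRNA against Panct1, and 3 of Luciferase control, from cells given a non-targeting esiRNA against Luciferase; an esiRNA is an enzymatically cut pool of short double-stranded RNAs. Both groups were Oct4-Gip ES cells, a reporter line in which Oct4 regulatory sequence drives a fluorescent protein and drug resistance, kept in serum and LIF, a cytokine that supports self-renewal. In both, 60000 cells were transfected with 800 ng of esiRNA and collected after 72 hours. Values are log2 signals from Affymetrix Mouse430 version 2 arrays, on which a difference of 1 is a doubling.

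Nonmuscle myosin II is the motor that pulls on actin filaments in almost all cells. A pair of heavy chains carries the motor heads and the tail that builds filaments, and each head binds an essential light chain, which stiffens it, and a regulatory light chain, whose phosphorylation starts filament assembly and motor activity. Myosin light chain kinase, encoded by Mylk and driven by calcium, and the kinases Rock1 and Rock2 add that phosphate, and a phosphatase that is brought to myosin by the Ppp1r12a protein takes it off. In mouse embryonic stem cells and the early embryo this machinery contributes to cortical tension, compaction and the shape of colonies.

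All 12 mouse embryonic stem cell markers on a list from Pou5f1 to Tdgf1 lay above the array medians of 6.07 to 6.09 in both groups, the lowest being Esrrb at a mean of 10.20 in knockdown and 10.70 in control. Arrays of 1 group correlated at 0.997 to 0.998 and arrays of different groups at 0.991 to 0.993 over all probe sets. No probe set used here is named as Panct1, so its depletion was not assessed. The labels do not say whether the replicates were separate cultures, so p-values rest on a spread that may be purely technical. In cultures measured in bulk, a change in the share of cells that express a gene and a change in RNA per cell cannot be told apart.

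The heavy chain genes Myh9 and Myh10 and the regulatory light chain genes Myl9 and Myl12a rose after knockdown, by 1.28-fold to 3.11-fold on their brightest probe sets. Among the enzymes, Rock1 rose by 1.26-fold and Mylk and Ppp1r12a did not pass. By limma at an adjusted p under 0.05 over all probe sets, 9 of the 25 member probe sets rose and 0 fell, where 7.82% of all probe sets rose and 6.76% fell. Of the 9, 4 belong to Myh9 and the others to Myh10, Myl9, Myl12a and Rock1, and sets of the same gene are not independent. The members were chosen with earlier results of these data known. The shares of all probe sets and genes given here are thus a description only. For 13 of the 25 the 3 knockdown arrays lay above the 3 control arrays without overlap, against 14.2% of all probe sets. Of the 25 log2 differences 24 were above 0, as were 44.3% of all, and their median was 0.20, against -0.02 over all probe sets. With 1 probe set per gene, the one with the highest mean signal, 6 of 9 members rose and 0 fell, against 12.9% of 18193 genes that rose and 11.3% that fell. The member added in that fit was Myl12b.

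**Figure D1:**
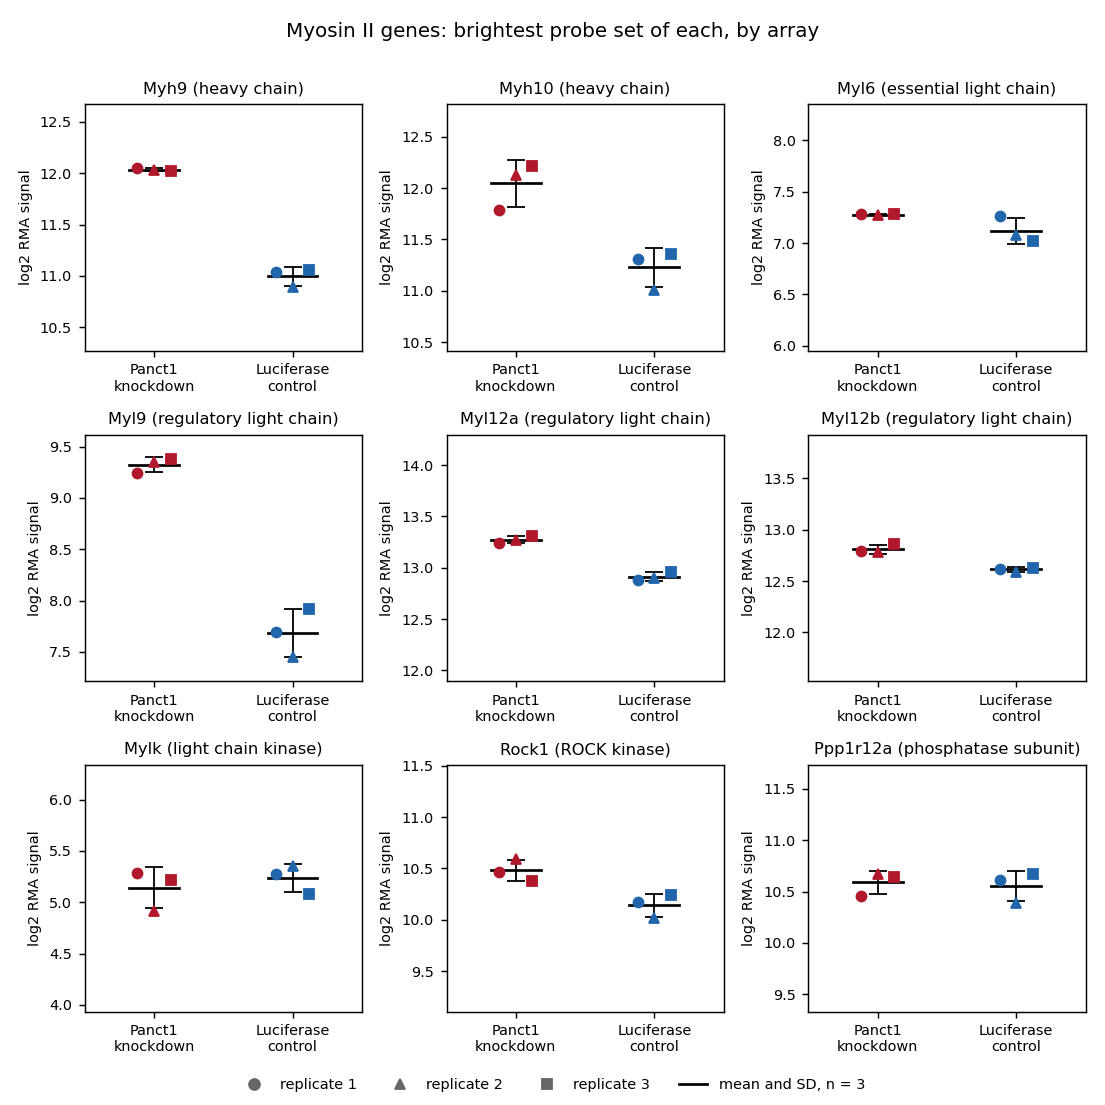
Log2 signal of the brightest probe set of each of the 9 measured genes on each array, with Panct1 knockdown on the left and Luciferase control on the right of each panel; symbols mark the replicate, bars the mean and SD of 3 arrays, and every panel spans the same log2 range. The groups stand clear of each other for Myh9, Myh10, Myl9, Myl12a, Myl12b and Rock1, lie close for Myl6, and overlap for Mylk and Ppp1r12a.

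**Figure D2:**
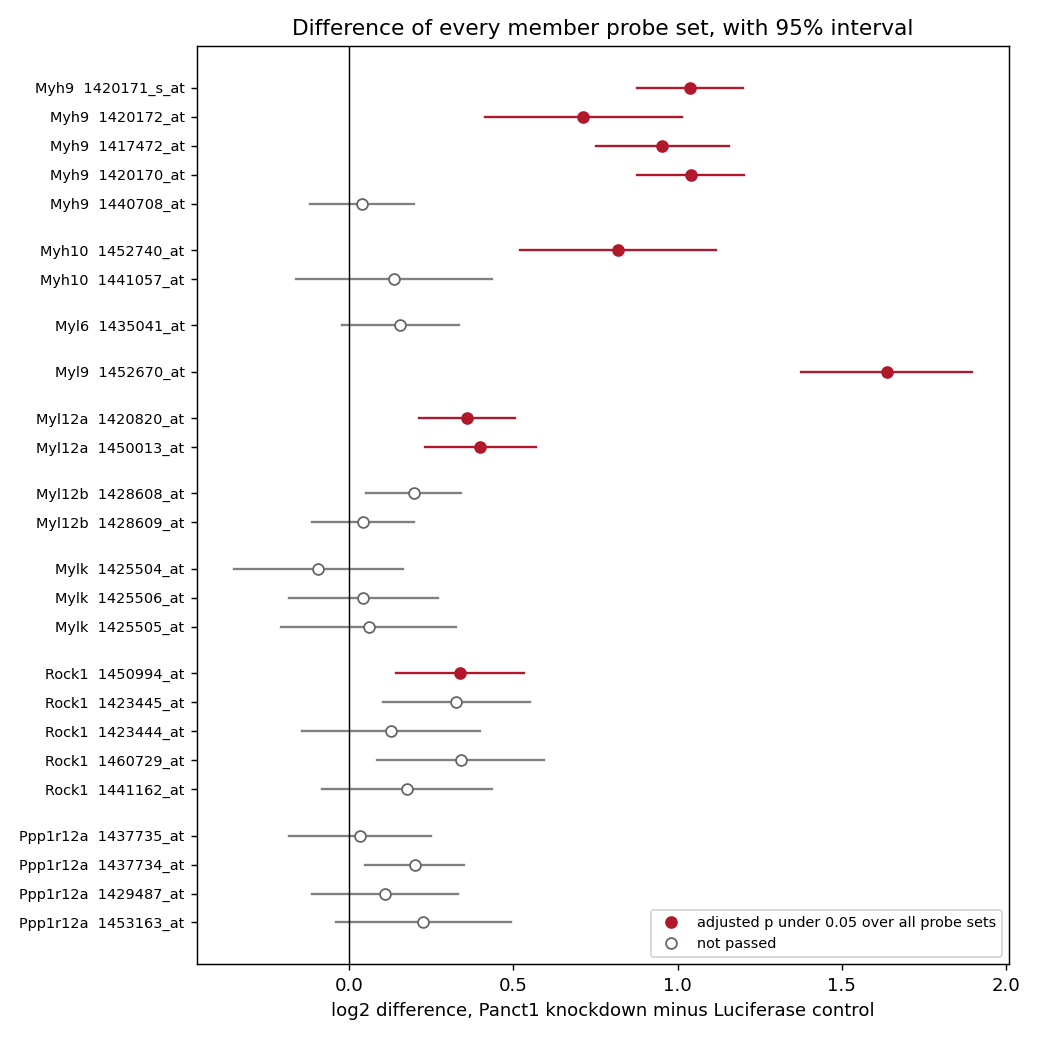
Log2 difference, Panct1 knockdown minus Luciferase control, of each of the 25 member probe sets with its 95% interval from limma, grouped by gene; filled points passed an adjusted p under 0.05 over all probe sets. The difference of Myl9 (1.64) is the largest, 4 of 5 Myh9 sets lie between 0.71 and 1.04, and 24 of the 25 differences are above 0.

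The heavy chains were measured first. Myh9 encodes heavy chain IIA, the motor of cell edges and rear contraction. Its brightest probe set, 1420171_s_at, read 12.05, 12.03 and 12.02 on the knockdown arrays, against 11.04, 10.89 and 11.06 on the control arrays. Every knockdown value was thus about a doubling above every control value, and the knockdown arrays hardly differed among themselves. The fold was 2.05 (log2 difference 1.04, SE 0.07, limma adjusted p = 4.81e-05). The set 1420170_at gave the same size, with 9.80, 9.81 and 9.65 in knockdown and 8.69, 8.70 and 8.75 in control (log2 difference 1.04). The sets 1417472_at and 1420172_at rose by 0.95 and 0.71, and the second of these spread the most, from 9.27 to 9.74 among the controls. The fifth set, 1440708_at, had a mean of 6.23 ± 0.03 (SD, n = 3) in knockdown and 6.19 ± 0.08 in control, near the array median, and did not pass (log2 difference 0.04, 95% interval -0.12 to 0.20, adjusted p = 0.784).

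Myh10 encodes heavy chain IIB, which holds tension for longer and is abundant in embryonic tissues. Its set 1452740_at read 11.79, 12.13 and 12.22 in knockdown, against 11.31, 11.01 and 11.36 in control. The groups did not overlap, although knockdown replicate 1 lay only 0.43 above control replicate 3. The fold was 1.77 (log2 difference 0.82, SE 0.13, limma adjusted p = 0.00372). The other set, 1441057_at, lay below the array median, at 5.68 ± 0.24 (SD, n = 3) in knockdown and 5.55 ± 0.17 in control, and did not pass (log2 difference 0.14, adjusted p = 0.579). Both heavy chains thus rose on the probe sets with high signal, and the set of each with the lowest signal, near or below the array median, did not pass. Why these sets differ was not tested. The remaining nonmuscle heavy chain, IIC, encoded by Myh14 and named here after its values were seen, went the other way. Its only probe set read 7.84, 7.95 and 7.91 in knockdown, against 8.19, 8.14 and 8.14 in control. It fell by 0.26 (limma adjusted p over genes = 0.0161). That call was lost without control replicate 1 and in a fit with the replicate number as a block.

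Myl9, one of the genes for regulatory light chains and also abundant in smooth muscle, changed the most. Its only probe set, 1452670_at, read 9.24, 9.35 and 9.38 in knockdown, against 7.69, 7.45 and 7.92 in control. The lowest knockdown array lay 1.32 above the highest control array, and the controls were the more spread of the groups (SD 0.07 in knockdown and 0.24 in control, n = 3 each). The fold was 3.11, with a 95% interval from 2.60 to 3.72 (log2 difference 1.64, SE 0.11, limma adjusted p = 5.29e-05). A single probe set carries this result, so no second set checks it.

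Myl12a and Myl12b are neighbouring genes for nearly identical regulatory light chains that are made in most cells. Myl12a read 13.24, 13.27 and 13.31 in knockdown on 1420820_at, against 12.88, 12.90 and 12.96 in control, a high signal in both groups. The rise was 1.28-fold (log2 difference 0.36, SE 0.06, limma adjusted p = 0.00628) and was larger than the spread of either group. The second set of Myl12a, 1450013_at, which comes from the same target sequence, rose 1.32-fold, with 8.64, 8.74 and 8.74 in knockdown and 8.28, 8.41 and 8.23 in control (adjusted p = 0.00761). Myl12b read 12.79, 12.78 and 12.86 on 1428608_at in knockdown, against 12.62, 12.59 and 12.63 in control. These groups did not overlap either, but the difference of 0.20 did not pass over all probe sets (adjusted p = 0.0761) and did over genes (adjusted p = 0.0428). That gene-level call was lost on leaving out any 1 array (adjusted p from 0.0699 to 0.115). The second set of Myl12b, 1428609_at, which lay below the array median, differed by 0.04. Whether probe sets of these paralogues read each other's transcripts was not tested.

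Myl6, the essential light chain, had 1 probe set of its own, 1435041_at. It read 7.28, 7.27 and 7.28 in knockdown, against 7.26, 7.08 and 7.02 in control, where replicate 1 almost reached the knockdown values. The difference of 0.16 did not pass (95% interval -0.02 to 0.33, limma adjusted p = 0.246). A further 2 sets are annotated to Myl6 together with 2 predicted genes and so lie outside the rule. They were bright, with means of 13.26 in knockdown and 13.02 in control for one and 13.31 in knockdown and 13.11 in control for the other. Their differences of 0.23 and 0.20 stopped just short of the threshold or missed it (adjusted p = 0.0514 and 0.0771), and which gene they read cannot be told apart.

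The DNA around the start sites was searched for a site of contractile genes. A CArG box is the site bound by SRF, the transcription factor that couples actin dynamics to the genes of the contractile machinery, and consists of CC, then 6 bases that are A or T, then GG. RefSeq windows of 250 bases before to 50 bases after a gene's start (build GRCm38.p6) were found for 9 of the 10 members, and a match on either strand was sought in each. No window was found for Rock1, and the 9 include Rock2, which was not analysed on the arrays. Matches stood in 2 members, Myl9 and Myl6, where 1.63% of 32851 such windows hold one. In Myl9 it lay 161 to 152 bases before the start and in Myl6 50 to 41 bases before the start of 1 of its 2 windows. The windows of Myl9 and Myl6 are shown for their match and those of Myh9 and Myl12a, which rose, for the absence of these letters; all are on the gene's own strand, 5′ to 3′, with the match in capitals.
Myl9, chr2:156775214-156775513, plus strand: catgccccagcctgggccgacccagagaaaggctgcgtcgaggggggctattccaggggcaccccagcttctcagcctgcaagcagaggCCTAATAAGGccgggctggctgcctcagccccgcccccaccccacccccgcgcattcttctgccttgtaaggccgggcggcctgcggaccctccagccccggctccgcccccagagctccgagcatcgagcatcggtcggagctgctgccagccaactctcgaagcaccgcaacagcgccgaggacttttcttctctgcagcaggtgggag
Myl6, chr10:128492960-128493259, minus strand: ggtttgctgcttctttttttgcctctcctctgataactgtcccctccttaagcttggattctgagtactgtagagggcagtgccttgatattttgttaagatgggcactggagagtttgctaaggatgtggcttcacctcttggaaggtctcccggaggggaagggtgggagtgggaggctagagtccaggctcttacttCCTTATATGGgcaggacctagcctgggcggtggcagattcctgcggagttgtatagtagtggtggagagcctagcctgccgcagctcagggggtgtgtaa
Myh9, chr15:77842126-77842425, minus strand: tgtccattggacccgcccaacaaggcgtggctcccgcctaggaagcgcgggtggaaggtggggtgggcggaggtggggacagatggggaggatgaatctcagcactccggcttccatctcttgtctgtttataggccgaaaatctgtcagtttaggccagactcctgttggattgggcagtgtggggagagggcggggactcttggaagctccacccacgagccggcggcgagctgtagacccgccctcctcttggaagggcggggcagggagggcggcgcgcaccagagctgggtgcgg
Myl12a, chr17:71002484-71002783, minus strand: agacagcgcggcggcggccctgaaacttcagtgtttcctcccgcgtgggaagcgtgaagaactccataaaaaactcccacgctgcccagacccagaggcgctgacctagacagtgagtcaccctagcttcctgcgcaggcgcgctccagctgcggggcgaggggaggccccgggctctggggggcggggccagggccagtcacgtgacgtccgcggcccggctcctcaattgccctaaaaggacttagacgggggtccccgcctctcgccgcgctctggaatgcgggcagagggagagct
A match to these letters is a description of the window, and the arrays do not measure binding. The member with the largest rise (Myl9) and a member that did not pass on its own probe set (Myl6) both hold one, and Myh9 rose without one in this window.

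Among the kinases, Mylk stayed near background. Its 3 probe sets, which share 1 target sequence, had means of 5.14, 4.75 and 4.57 in knockdown and of 5.24, 4.70 and 4.51 in control, all below the array median. The brightest, 1425504_at, read 5.29, 4.92 and 5.22 in knockdown, against 5.28, 5.35 and 5.08 in control, so the groups overlapped. None of the 3 passed (log2 differences -0.09, 0.04 and 0.06, limma adjusted p from 0.673 to 0.842), and the 95% interval of the brightest allows a fold between 0.78 and 1.12. At such low signal the array could miss a change.

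Rock1, a kinase that phosphorylates the regulatory light chain and blocks its phosphatase when bound by active RhoA, was well above background and rose slightly. The brightest of its 5 sets, 1450994_at, read 10.47, 10.59 and 10.38 in knockdown, against 10.17, 10.02 and 10.24 in control. The closest arrays were 0.14 apart, and the fold was 1.26 (log2 difference 0.34, SE 0.09, limma adjusted p = 0.0313). The other 4 sets were all higher in knockdown but did not pass: 1423445_at differed by 0.33 (adjusted p = 0.0599), 1460729_at by 0.34 (0.0802), 1441162_at, which is below the lower quartile of the arrays in both groups, by 0.18 (0.382) and 1423444_at by 0.13 (0.572). All 5 sets but 1441162_at share 1 target sequence, so they are not independent checks of each other. The call on 1450994_at was lost without knockdown replicate 1 or 2 or control replicate 1 or 2 (adjusted p from 0.0697 to 0.111).

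Ppp1r12a, the subunit that targets protein phosphatase 1 to myosin, did not pass on any of its 4 sets. The brightest, 1437735_at, read 10.46, 10.67 and 10.64 in knockdown, against 10.61, 10.39 and 10.67 in control, with full overlap (log2 difference 0.03, 95% interval -0.18 to 0.25, limma adjusted p = 0.875). On 1437734_at the groups did not overlap, with 9.59, 9.60 and 9.70 in knockdown and 9.41, 9.41 and 9.47 in control, but the difference of 0.20 did not pass (adjusted p = 0.0839). The remaining sets, 1429487_at and 1453163_at, differed by 0.11 and 0.23, and on leaving out 1 array by 0.052 to 0.20 and by 0.11 to 0.31. The upper end of the interval of the brightest set lies below the lower ends for the brightest sets of Myh9 (0.88) and Myh10 (0.52).

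To ask whether paired genes changed unequally, the log2 signal of one was taken from that of the other on each array, using the brightest set of each. The sign and size of such a value within 1 array carry no information on abundance, since different probe sets bind differently, and only its change between groups can be read. Myl9 minus Myl12a was -4.00, -3.92 and -3.93 in knockdown, against -5.19, -5.45 and -5.04 in control, a change of 1.28 with no overlap. Myl12a minus Myl12b was 0.45, 0.49 and 0.45 in knockdown, against 0.26, 0.31 and 0.33 in control, a change of 0.16 with no overlap. Both gave p = 0.10 in the two-sided exact permutation test, which is the smallest p that 3 against 3 arrays allow (0.20 after Benjamini-Hochberg adjustment over the 4 pairs). Myh9 minus Myh10 was 0.26, -0.10 and -0.20 in knockdown, against -0.27, -0.12 and -0.30 in control, so the groups overlapped (change 0.22, exact permutation p = 0.20, adjusted 0.267). This change was 0.08 without knockdown replicate 1 and 0.31 without knockdown replicate 3. Mylk minus Ppp1r12a changed by -0.13 (exact permutation p = 0.70). With the mean of all probe sets of each gene instead of the brightest, it changed by -0.14 (exact permutation p = 0.10). No pair could pass a threshold of 0.05 in this design.

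**Figure D3:**
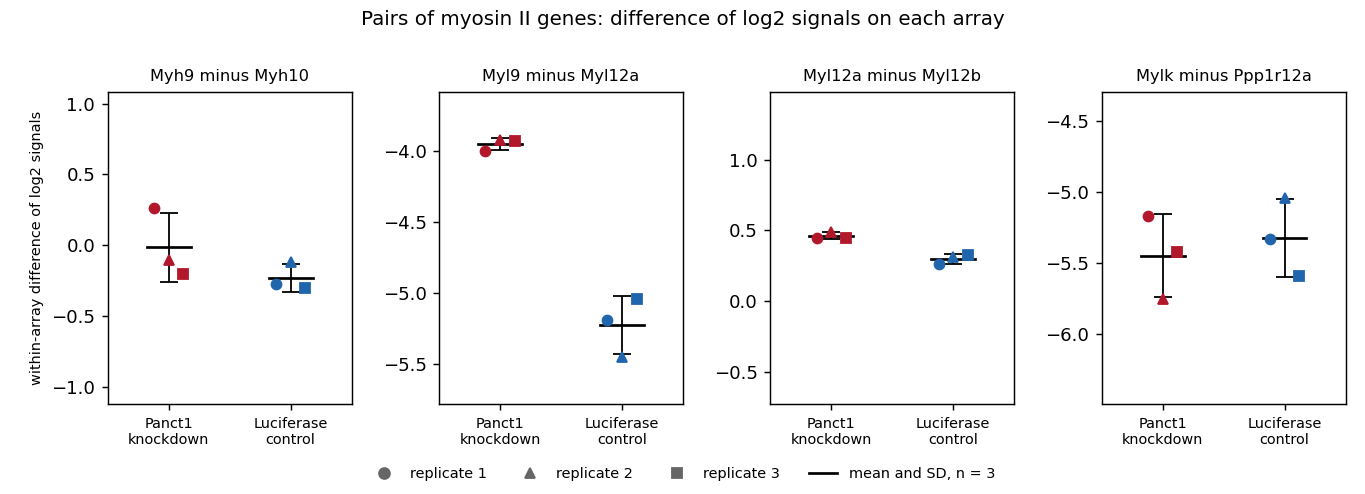
Difference of log2 signals between the brightest probe sets of 2 genes on each array, with Panct1 knockdown on the left and Luciferase control on the right of each panel; symbols mark the replicate and bars the mean and SD of 3 arrays. Myl9 minus Myl12a lies from -4.00 to -3.92 in knockdown, above the control values of -5.45 to -5.04, while Myh9 minus Myh10 and Mylk minus Ppp1r12a overlap between the groups.

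Control replicate 2 gave the lowest of the 3 control values for 14 of the 25 member probe sets and control replicate 3 the highest for 15. For Myl9, Myh9, Myh10 and Rock1 the log2 differences of the brightest sets without control replicate 2 were 1.52, 0.98, 0.71 and 0.28, and only the call of Rock1 depended on it.

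Around the members, 96 further genes of the pathway were on 6 lists. Of these genes 35 rose and 3 fell in the fit over all genes, beside 12.9% and 11.3% of all genes. Their median log2 difference was 0.14, against -0.02 over all genes. The lists were chosen with earlier results of these data known, and 15 of the 35 stand on the SRF list. The RhoA family of GTPases and its regulators, which feed into the Rock kinases, had 22 measured genes. Of these 7 rose and 2 fell, beside 12.9% of all genes that rose and 11.3% that fell. The share that fell is near that of all genes. Arhgap29, a GTPase-activating protein that turns RhoA off, rose 1.65-fold (limma adjusted p = 9.33e-04). Dlc1, another such protein, fell by 0.70 on the log2 scale on its brightest set, and all 4 of its sets passed as fallen. Arhgef18, an exchange factor that turns RhoA on, fell by 0.65. Rhoa itself, named after its values were seen like Rhob, differed by 0.10 without passing (adjusted p = 0.341), and Rhob rose by 0.39.

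Of 12 other kinases of the light chain, 2 rose and 0 fell: Stk17b rose 1.33-fold and Pak2, a kinase activated by Rac and Cdc42, rose 1.23-fold, while Dapk1 differed by 0.20 (limma adjusted p = 0.0512). That share is close to the 12.9% of all genes that rose, and the count depended on single arrays: 1 rose without knockdown replicate 2 or control replicate 1, and 4 rose and 1 fell without knockdown replicate 3. Over all probe sets 1 of 3 sets of Pak2 passed, and their differences ran from -0.027 to 0.29. Of 10 genes of the light chain phosphatase and its modifiers, 2 rose and 0 fell, again not far from the 12.9% and 11.3% of all genes. Nuak1, a kinase that phosphorylates the Ppp1r12a protein, read 7.91, 7.72 and 7.60 in knockdown, against 6.43, 6.69 and 6.66 in control, a 2.22-fold rise (adjusted p = 8.21e-05). Ppp1r14c, an inhibitor of the phosphatase, rose 1.37-fold, and Ppp1r14d differed by 0.14 without passing. Ppp1cb encodes the catalytic subunit and was picked after its values were seen; it differed by 0.06 (adjusted p = 0.564).

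Of 16 further genes for myosin II and its filament partners, 5 rose and 1 fell, beside 12.9% and 11.3% of all genes. The 1 that fell was Myh14, named after its values were seen. Cald1, which encodes caldesmon, a protein that clamps actin and myosin together, read 11.40, 11.36 and 11.26 in knockdown, against 9.27, 9.31 and 9.35 in control, a 4.08-fold rise (limma adjusted p = 8.43e-07). Shroom2, an actin-binding partner of Rock kinases, rose 1.78-fold and Myo18a, a myosin that joins myosin II filaments, rose 1.63-fold. S100a4, a calcium-binding protein that takes myosin IIA filaments apart, was named after its values were seen. It read 7.78, 7.25 and 6.93 in knockdown and 6.18, 6.51 and 6.05 in control, a rise of 1.07.

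Of 15 substrates of the Rock kinases and neighbouring actin regulators, 4 rose and 0 fell, beside 12.9% and 11.3% of all genes. Diaph2, a formin that lengthens actin filaments, rose 2.97-fold, with both of its probe sets past the threshold. Limk2, the kinase that Rock kinases activate to block cofilin, rose 1.82-fold and Ssh1, the phosphatase that reactivates cofilin, 1.55-fold, though 1 of 4 sets of Ssh1 passed. Limk2 and Ssh1 act on cofilin in opposite directions.

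Of the 6 lists, that of SRF, its actin-sensing coactivators Mrtfa and Mrtfb, and their known targets had the largest median difference. All 6 were chosen with earlier results of these data known, so this ranking is a description only. Of 24 measured genes 17 rose and 0 fell, beside 12.9% of all genes that rose and 11.3% that fell. Without the members Myl9, Myh9 and Mylk 15 of 21 rose. The list's median log2 difference was 0.81, against -0.02 over all genes. Tagln, which encodes the actin-binding transgelin, rose 6.29-fold, Ccn1, a matrix-associated early response gene, 3.01-fold and Tpm1, a tropomyosin, 2.93-fold. The factors themselves, named after their values were seen, did not pass: Srf differed by 0.05, Mrtfa by -0.11 and Mrtfb by 0.21 (limma adjusted p = 0.617, 0.407 and 0.0700). A CArG box stood in the window of 7 of the 21 list genes with a window, beside 1.81% of all genes with a window. The list was made of known SRF targets, so this comparison was partly settled by how it was made. Of the 7 genes 5 rose, a share like that of the list (17 of 24). Whether the box bears on the rise was not tested. Actb, the gene for cytoplasmic actin, was likewise picked after its values were seen and differed by 0.01.

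**Figure D4:**
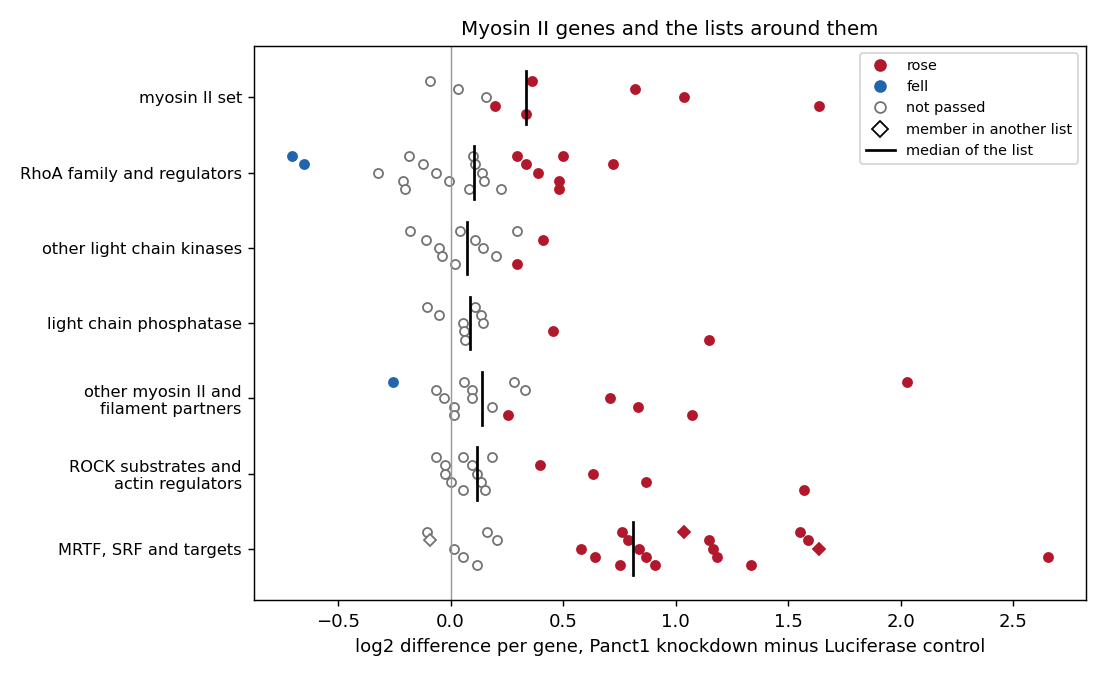
Log2 difference per gene, Panct1 knockdown minus Luciferase control, for the 9 measured myosin II genes and the 6 lists around them, each gene by its brightest probe set; filled points passed an adjusted p under 0.05 over all genes (red rose, blue fell), diamonds are myosin II genes that also stand on the last list, and black lines are list medians. The list of SRF and its targets has its median at 0.81, while the medians of the other lists lie between 0.08 and 0.14 and that of the myosin II genes at 0.34.

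Of the 22 named genes outside the members that passed and have several probe sets, 5 passed with all their sets in 1 direction and 17 had a set short of the threshold, and 0 had a set past it in the opposite direction. Myl9, Mylk, Tagln and Acta2 are also used as markers of smooth muscle, so the markers of other cell types were counted. Of 12 smooth muscle genes 5 also stand on the SRF list. On the smooth muscle list 5 rose and 1 fell, beside 12.9% of all genes that rose and 11.3% that fell. Tagln, Myl9 and Cnn1 (2.53-fold) led. The other 9 were named after their values were seen, apart from the member Mylk. Acta2, smooth muscle actin, rose 2.22-fold and Smtn, smoothelin, 1.21-fold (means of 8.16 in knockdown and 7.88 in control), while Synpo2 fell by 0.67 on the log2 scale. Over all probe sets, 1 of 3 sets of Acta2 and 1 of 4 sets of Synpo2 passed, and the only set of Smtn did not. The remaining 6 did not pass. Myh11, the smooth muscle heavy chain, had means of 5.05 in knockdown and 5.11 in control, Myocd of 5.24 in knockdown and 5.23 in control, Actg2 of 4.32 in knockdown and 4.18 in control, and Mylk of 5.14 in knockdown and 5.24 in control, all below the array medians of 6.07 to 6.09. Lmod1 (6.40 in knockdown, 6.41 in control) and Des (7.86 in knockdown, 7.73 in control) lay above them. The mean log2 signal of the list lay from 7.11 to 7.17 in knockdown and from 6.53 to 6.65 in control. Of 12 fibroblast genes 2 rose and 0 fell, not far from the shares of all genes. Col3a1 rose by 0.63 and Col1a1 by 0.28, and Postn differed by 0.15 without passing. The means of Col3a1 were 5.13 in knockdown, below the array median, and 4.50 in control, below the lower quartile of the arrays. Over all probe sets 1 of 2 sets of Col3a1 and 1 of 2 sets of Col1a1 passed. The list's mean signal was 5.87 to 5.89 in knockdown and 5.79 to 5.84 in control. Of 12 striated muscle genes 2 rose and 1 fell, also not far from those shares. Actc1 and Myh6 rose by 0.58 and 0.48. Myl2 fell by 0.27, though its only probe set did not pass over all probe sets. The list's mean signal was 6.31 to 6.33 in knockdown and 6.19 to 6.27 in control. Of the 12 stem cell markers 6 fell and 0 rose, where 11.3% of all genes fell and 12.9% rose. Among them Esrrb fell by 0.50, Zfp42 by 0.42 and Dppa4 by 0.29. The part of these cell types in the rise of the myosin II genes was not tested.

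The member whose probe set had the smallest p was Myh9. Over the 6 arrays the genes whose log2 signals followed its brightest set most closely were Wls (Pearson's r = 0.999), Gng12 (0.999), Myadm (0.998), Ccn1 (0.998) and Lrpap1 (0.998). All 5 rose, by 1.92, 1.44, 0.59, 1.59 and 0.57 on the log2 scale in this order. With 2 groups of 3 arrays these correlations mostly restate the difference between the groups, and they are given as a description.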

How the data were processed

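Total RNA of 6 samples was measured on Affymetrix Mouse430 version 2 arrays. The authors deposited 1 log2 signal for each probe set and array, made with GCOS 1.4 and RMA per the submitters' processing notes; RMA corrects background, quantile-normalises and summarises probes, and which arrays entered 1 normalisation is not given in the sources used here. These values were used unchanged. Precision is limited by the number of arrays, and RMA pulls the differences of dim probe sets towards 0.

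Of 45101 probe sets, 64 controls were left out. A platform annotation gave 34945 of the rest 1 symbol, 932 several and 9160 none; 34741 symbols were updated through RefSeq gene IDs (GRCm38.p6). Groups came from the titles. limma 3.58.1 (R 4.3.3, statmod 1.5.0; lmFit, eBayes, group as the only term) tested all 45037 probe sets, and 1 per gene (the highest mean) for 18193 genes, two-sided, with Benjamini-Hochberg adjustment over the whole table. The code was tested on simulated data. Promoter windows are RefSeq's.

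The members and lists were chosen with earlier results of these data known. Named by rule were the members, the 3 genes of each list with the smallest p and the 5 genes most like Myh9; others are marked as named after their values were seen. Of the pathway lists, 6 genes were not analysed here. Alternatives were a replicate block, median centring, a second quantile normalisation, a robust variance with an intensity trend, array weights, removal of dim or suffixed probe sets, other probe sets per gene, a 1.5-fold minimum and leaving out each array.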

Additional observations from a re-analysis of the deposited data

How the results depend on the processing

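Of the 9 member probe sets that rose, 8 kept their call under all 12 or 13 alternatives run for single probe sets, the exception being Rock1 1450994_at (adjusted p = 0.0908 with the replicate block). The count of member probe sets past the threshold ran from 8 to 10 on leaving out 1 array, and the gene-level count from 4 to 5, without Myl12b each time and without Rock1 when knockdown replicate 2 or control replicate 2 was left out. A 1.5-fold minimum left 2086 probe sets, 1227 genes, 3 member genes (Myh9, Myh10 and Myl9) and 25 pathway genes. With the mean of all probe sets per gene, the differences of Myh9 and Myh10 were smaller, at 0.76 and 0.48, and both still passed over genes. Over all probe sets the count ran from 4266, without control replicate 1, to 5574, without knockdown replicate 1. Replicate numbers did not pair the arrays: deviations of same-numbered arrays from their group means correlated at -0.16, -0.30 and -0.15. In the fit with the replicate block, 8 member probe sets, 5 member genes, 36 pathway genes, 4692 probe sets and 3496 genes passed, and the 4 pair differences are the same by construction; 0.25 is the smallest p that 3 pairs allow, so the block could not test them. The set 1428608_at of Myl12b passed with repeated quantile normalisation (adjusted p = 0.0497) and with an intensity trend (0.00484), and 1423445_at and 1460729_at of Rock1 passed in 4 and 2 settings; the cause was not tested.

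Differences near 0 changed sign on leaving out 1 array. They ran from -0.0067 to 0.073 for Myh9 1440708_at, from -0.0017 to 0.23 for Myh10 1441057_at, from -0.17 to 0.018 for Mylk 1425504_at, from -0.033 to 0.13 for Mylk 1425506_at, from -0.047 to 0.16 for Mylk 1425505_at, from -0.015 to 0.21 for Rock1 1423444_at and from -0.05 to 0.10 for Ppp1r12a 1437735_at. Without a change of sign, differences that did not pass ran from 0.11 to 0.23 for Myl6 1435041_at, from 0.0067 to 0.082 for Myl12b 1428609_at and from 0.078 to 0.26 for Rock1 1441162_at. Mylk minus Ppp1r12a ran from -0.27 to 0.025. Mylk 1425506_at was at -0.031 with array weights. The Rock1 minus Rock2 difference was not run, because Rock2 was not analysed here. Probe sets with signal below the array median, among them all those of Mylk, limit what could be detected.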
